A study of Drosophila melanogaster with 6 samples.

Results

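Chromosome arm 3L of Drosophila melanogaster held 467 of the 9881 peaks of a ChIP-seq peak list from white prepupae when only peaks narrower than 2 kb were kept. The members were chosen by their position on 3L and by their measured width, so neither is a finding here. The same width limit gave 322 peaks on X, 428 on 2L and 424 on 3R, which are set beside 3L below. The study compared 3 libraries of chromatin precipitated with a mouse monoclonal antibody, recorded as a gift from another laboratory with tango as its target, with 3 libraries of input DNA. All 6 came from whole animals at the white prepupal stage of the Y cn bw sp strain. Its recorded genotype has the [1] alleles of y, Gr22b, Gr22d, cn, bw, sp, LysC, MstProx, GstD5 and Rh6, together with oc[R3.2] and the [R4.2] alleles of CG33964 and lab, in ChIP and input animals alike. No tagged protein or transgene is listed. Library titles carry the name TCF and the antibody entry the name tango, so no protein is assigned to the peaks.

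Tango belongs to the bHLH-PAS family, proteins that bind DNA in pairs. It is the shared partner of several such factors in the fly, among them Single-minded in the midline of the nerve cord, Trachealess in the tracheal system, Spineless in the antenna and legs, and Similar in the response to low oxygen. TCF, in the fly the product of pangolin, is a separate kind of factor that carries the Wingless signal to its target genes. White prepupae are formed when a pulse of the steroid hormone ecdysone ends larval life. Whole animals mix tissues that use different partners, so a peak in such a sample cannot be placed in a tissue.

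The list gives each peak a start, an end and a score on FlyBase release 5. It is 1 list for all 6 libraries, so there is no value per library, no replicate error and no test of ChIP against input, and the depth of the libraries is unknown. Every comparison below describes peaks within that list. The score is the authors' and was used only to rank and describe peaks, in places by ratios of scores. Shares are given with 95% Wilson intervals. They hold counting error alone and would be too narrow where peaks are neighbours. Genes and DNA sequence at the positions given were not analysed here.

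The 467 peaks were 87.6% of the 533 peaks on 3L and covered 289.0 kb, which was 53.8% of the covered length of the arm and 1.19% of its span of 24.34 Mb. They made up 28.5% of the 1641 peaks under 2 kb on the 4 arms (interval 26.3 to 30.7%). Their density was 19.2 per Mb on 3L, against 14.4 on X, 18.9 on 2L and 15.3 on 3R. Median width was 524 bp on 3L, with quartiles of 338.5 and 782.5 bp, against medians of 517 bp on X, 485.5 bp on 2L and 501.5 bp on 3R. Of the 3L peaks, 5 had the narrowest width in the whole list, 201 bp. At the other end, the 3 members just inside the width limit were 3L:17510896-17512882 (1987 bp, score 23.06), 3L:5115440-5117401 (1962 bp, score 38.19) and 3L:21008170-21010109 (1940 bp, score 15.38). The 3 peaks just outside it were 3L:21743120-21745155 (2036 bp, score 20.07), 3L:23348824-23350906 (2083 bp, score 17.79) and 3L:2448834-2450997 (2164 bp, score 33.04). The scores on the 2 sides of the limit overlapped. The widest member lay 61 bp from a broader peak.

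Most 3L peaks scored low and a small number scored very high. The lowest score was 6.95, the quartiles were 12.76, 18.35 and 33.04, and the highest score was 927.33. The median of 18.35 on 3L stood beside 21.24 on X, 19.78 on 2L and 19.92 on 3R. The intervals of the medians, taken from the binomial distribution of ranks, were 17.23 to 19.48 on 3L, 19.2 to 23.06 on X, 18.35 to 21.84 on 2L and 17.79 to 21.54 on 3R. They overlapped for all 4 arms. On 3L, 168 members (36.0%) scored under 15, 170 (36.4%) from 15 to 30, 78 (16.7%) from 30 to 100, 19 (4.07%) from 100 to 200 and 32 (6.85%) at 200 or more. These limits were set after the scores had been seen.

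The share of peaks on 3L was also taken by score. Of all peaks under 2 kb on the 4 arms, 28.5% lay on 3L. Among those scoring 20 or more it was 198 of 797 (24.8%, interval 22.0 to 28.0%), and among those scoring 100 or more it was 51 of 180 (28.3%, interval 22.3 to 35.3%). At 200 or more it was 32 of 89 (36.0%, interval 26.8 to 46.3%), with 17 on X, 16 on 2L and 24 on 3R. At 400 or more it was 7 of 29 (24.1%, interval 12.2 to 42.1%), where 2L had 11. The interval at 20 or more lay below 28.5%, but at 15 or more the share was 27.7% (interval 25.1 to 30.4%) and at 30 or more it was 26.9% (interval 23.1 to 31.0%), and both intervals included it, as did those at 50, 100, 150, 200, 300 and 400. The limits are nested, and differences between them were not tested.

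Width and score were related, though not along a single line. Across the 467 peaks Spearman's rho between them was 0.56, against 0.39 on X, 0.49 on 2L and 0.46 on 3R. These are descriptions over peaks that share libraries and neighbours. The median score on 3L was 11.01 for peaks under 300 bp and 14.22 for those of 300 to 400 bp. It was 19.78 from 400 to 600 bp, then 23.68 up to 1000 bp and 22.91 for wider peaks. The median of the widest class was thus no higher than that of the class before it. No 3L peak narrower than 400 bp reached a score of 100, the nearest being 3L:12906718-12907042 with 96.92. X had 4 such peaks, 2L had 3 and 3R had 1. The count depends on the limit, since 3L:13285101-13285502, 402 bp wide, scored 182.01. Under 300 bp the order of the arms was another. The highest score was 79.04 among 85 peaks on 3L, against 38.95 among 62 on X, 27.54 among 87 on 2L and 98.11 among 82 on 3R. The 32 peaks scoring 200 or more had widths between 521 and 1592 bp and a median width of 790.5 bp. The peaks scoring 15 to 30 reached the same widths, with 216 to 1987 bp and a median of 649 bp, so a wide peak on 3L was not of itself a high-scoring one.

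**Figure D1:**
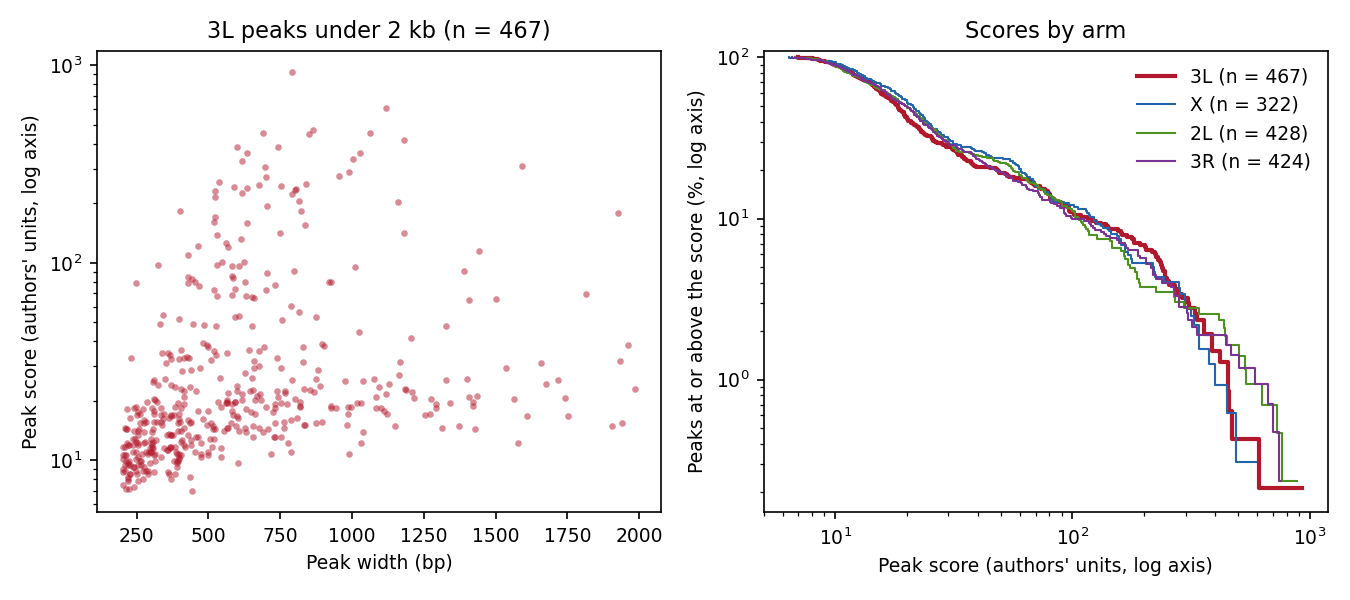
Left, score (log axis, authors' units) against width in bp for each of the 467 peaks under 2 kb on 3L. Right, the percentage of peaks under 2 kb at or above each score (both axes log) on 3L, X, 2L and 3R, where the 3L line lies lowest near a score of 20 and highest near 200.

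The highest-scoring member, 3L:18178706-18179496, was 791 bp wide and scored 927.33, the second highest of all 9881 peaks. The next on 3L was 3L:21872812-21873928, 1117 bp wide, with a score of 609.29 and rank 87 in the list. The gap between the first and the second on 3L was thus larger than the whole range of the other 8 named here. Those were 3L:7711378-7712241 (468.29), 3L:4070327-4071390 (456.07), 3L:3394679-3395369 (454.34), 3L:603908-604756 (450.87), 3L:3384366-3385547 (418.3), 3L:9685879-9686619 (387.27), 3L:1442777-1443377 (386.44) and 3L:15527777-15528410 (359.07). All 10 were 601 to 1182 bp wide. The nearest broad peak of 2 kb or more lay 57416 bp or farther from each of them. Another peak of some width lay within 5 kb of 4 of the 10, and 4 had none within 20 kb. Distance from broad peaks was common: of all 467 members, 380 (81.4%) lay 20 kb or more from one. Of all members, 98 (21.0%) had no peak within 20 kb.

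The highest-scoring peaks were spread over the arm with a few close groups. The 32 members at 200 or more had a median spacing of 584.5 kb between midpoints, and the spacing ran from 5.3 to 2651.0 kb. They fell in 17 of the 25 bins of 1 Mb. One close group lay between 3L:3384366-3385547 (418.3), 3L:3394679-3395369 (454.34), 3L:3450330-3450945 (224.22) and 3L:3460361-3461387 (357.76). Between the first and second of these stood only a peak of 247 bp, 3L:3389763-3390009, which scored 8.86. With further peaks of 155.07, 141.53 and 101.34, the bin at 3 to 4 Mb had 7 of its 14 members at 100 or more and a median of 67.04, the highest median of any bin on 3L.

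A second group followed the strongest peak on its high-coordinate side, with no peak for 134853 bp on the other side. After 3L:18178706-18179496 with 927.33 came 3L:18187415-18187876 with 120.87, 3L:18199109-18199648 with 26.23, 3L:18205250-18205679 with 109.01, 3L:18218218-18218454 with 11.93 and 3L:18233875-18234570 with 306.27. High and low scores alternated here over gaps of 5601 to 15420 bp. None of these peaks was wider than 791 bp, and the nearest broad peak was 287976 bp away or more. Of all 467 members of 3L, 380 lay 20 kb or more from a broad peak.

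High and low members differed in their surroundings. Of the 51 members scoring 100 or more, 34 (66.7%, interval 53.0 to 78.0%) had no other peak within 5 kb, against 125 of the 416 members below 100 (interval 25.8 to 34.6%). Only 2 of the 51 (3.92%, interval 1.08 to 13.2%) had a peak within 500 bp, against 201 of the 416 (48.3%, interval 43.6 to 53.1%). Both of those 2 belonged to 1 region, described below. Scores and gaps come from the same calls, and a test over neighbouring peaks was not made. The difference lay between the classes under and over 30: a peak within 500 bp stood beside 54.2% of members under 15, 57.6% at 15 to 30, 15.4% at 30 to 100, 0 of 19 at 100 to 200 (an upper limit of 15.8%) and 6.25% at 200 or more.

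The other arms showed the same order between the classes under and over 30. At 15 to 30 the share with a peak within 500 bp was 57.6% on 3L, against 71.0% on X, 57.0% on 2L and 59.0% on 3R. At 30 to 100 it was 15.4% on 3L, against 12.9% on X, 16.7% on 2L and 8.54% on 3R. Among members of 100 or more it was 3.92% on 3L, against 12.8% on X, 10.4% on 2L and 7.14% on 3R, with intervals that all overlapped. The pattern is therefore described for the 4 arms and not for 3L alone.

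**Figure D2:**
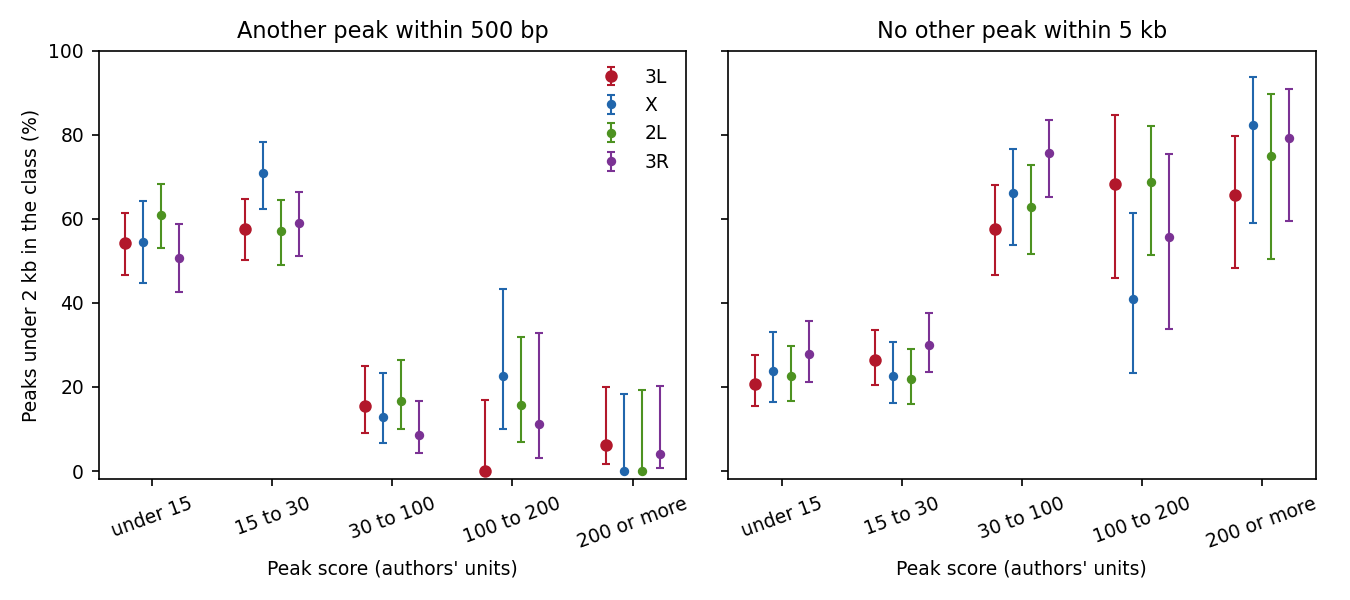
Percentage of peaks under 2 kb in each score class with another peak of any width within 500 bp (left) and with none within 5 kb (right), for 3L, X, 2L and 3R; points are shares and bars 95% Wilson intervals. On 3L the left share is 57.6% at scores of 15 to 30 and 15.4% at 30 to 100.

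The companions of strong 3L peaks mostly scored low, as did most 3L peaks. Of the 51 members at 100 or more, 17 had a peak within 5 kb. In 12 of these 17 the highest such companion scored under 30, and the median of the highest companions was 16.97. Of all 467 members, 338 (72.4%) scored under 30 and the median was 18.35. The 2 medians are unlike measures. The first takes the highest companion of any width and can count a peak more than once, while the second is over single members. Among the lowest companions were those of 3L:9685879-9686619, with 387.27 beside 8.08, and 3L:12401821-12402610, with 222.12 beside 7.5. These companions ranked 458 and 463 of the 467 members by score. The companions of 2 members scored 100 or more, and these were companions of each other.

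Joining members, with broad peaks left out, across gaps under 5 kb gave 279 regions on 3L. Of these 185 were single peaks, 49 were pairs, 34 held 3 or 4 members and 11 held 5 or more. A single peak could thus still have a broad peak within 5 kb. Single peaks were 39.6% of members on 3L, against 48.1% on X, 40.7% on 2L and 49.3% on 3R. The single peaks had a median score of 25.91, against 15.38 for members in regions of 2 or more. The same order held on X (25.58 against 17.79), 2L (31.12 against 16.56) and 3R (26.56 against 15.64).

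The 5 fullest regions were of different makes. The first, 3L:2927973-2935624, held 8 peaks that scored 12.88, 11.7, 12.16, 17.23, 16.97, 11.01, 14.1 and 17.79 along its 7.7 kb, with gaps of 50 to 954 bp. Its scores varied little and none passed 18. The second, 3L:16008614-16022562, also held 8 peaks but over 13.9 kb, with scores of 38.19, 16.43, 115.17, 31.29, 13.12, 65.15, 16.17 and 37.44. Its median of 34.36 was the highest of the 11 regions with 5 or more members.

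The third, 3L:21003209-21016483, held 7 members that scored 7.13 to 28.21 and enclosed 1 broad peak. The fourth, 3L:24012027-24020072, held 7 members with scores of 8.47 to 33.04. The fifth, 3L:11316105-11325896, held 6 members and was the one region of 5 or more with a score over 200. In it 310.14 (1592 bp) was followed by 11.93, 23.06, 327.37 (618 bp), 8.47 and 17.79. Weak peaks stood between the 2 high ones and after the second. Regions of 6 members also lay at 3L:14260712-14264518, 3L:22610452-22616435 and 3L:23614175-23617989, where scores did not pass 24.31.

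Close neighbours had like scores. The statistic behind the score is not stated, so a ratio of scores cannot be read as a fold of signal. In 102 pairs of neighbouring members with a gap under 500 bp the higher score was a median of 1.42 times the lower, and 60 pairs (58.8%, interval 49.1 to 67.9%) lay within 1.5-fold. At gaps of 500 bp to 5 kb the median ratio was 2.01 over 74 pairs, of which 22 (29.7%, interval 20.5 to 40.9%) lay within 1.5-fold. Beyond that distance there was little further change, with 2.16 over 53 pairs at 5 to 20 kb and 2.2 over 185 pairs at 20 kb or more. On the other arms the median ratio at gaps under 500 bp was 1.39 on X, 1.34 on 2L and 1.38 on 3R, near that of 3L. At 500 bp to 5 kb it was 2.01 on 3L, against 1.71 on X, 1.78 on 2L and 1.66 on 3R. At 20 kb or more it was 2.2 on 3L, against 2.41 on X, 2.28 on 2L and 2.13 on 3R. Of the 203 members of 3L with a peak within 500 bp, 189 scored under 30, which narrows the ratios that such pairs can have. The largest ratio at such a gap on 3L, 38.7, was that of 327.37 and 8.47 in the fifth region above. No gap between neighbouring peaks was shorter than 50 bp on any of the 4 arms, and 64 gaps on 3L were 50 to 99 bp.

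**Figure D3:**
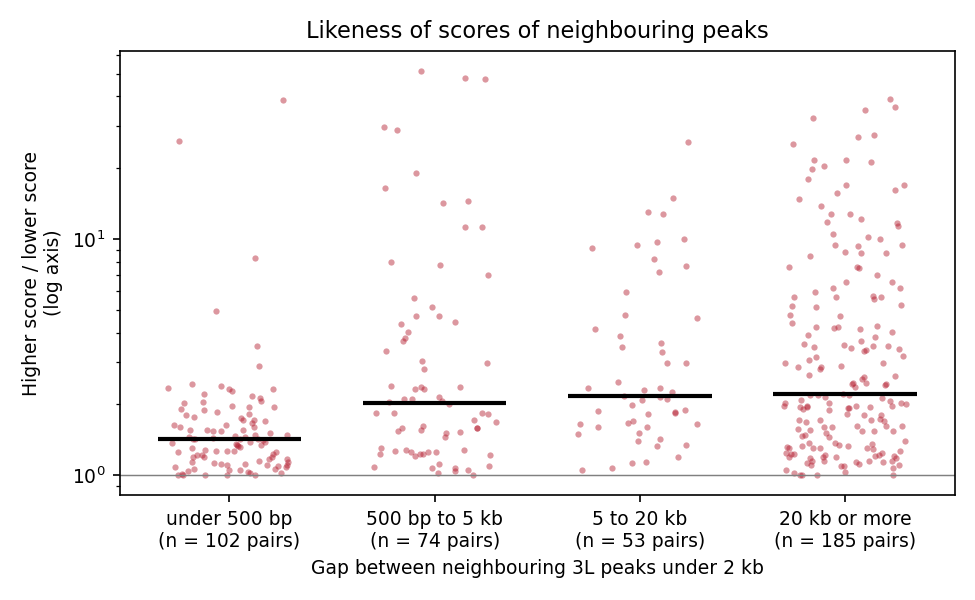
Ratio of the higher to the lower score (log axis) in each pair of neighbouring 3L peaks under 2 kb, by the gap between them; points are pairs, with sideways scatter for sight only, and black lines are medians. The medians are 1.42, 2.01, 2.16 and 2.2 from the shortest gaps to the longest.

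Members beside broad peaks were wide and of middling score. On 3L 44 members (9.42%) lay within 500 bp of a peak of 2 kb or more, against 63 on X (19.6%), 46 on 2L (10.7%) and 36 on 3R (8.49%). The 44 had a median width of 793.5 bp and scores from 8.47 to 37.82 with a median of 21.39. The medians on the other arms were near it, at 20.65 on X, 22.15 on 2L and 21.99 on 3R. None of the 44 reached 38, whereas the highest in that position was 118.58 on X, 102.42 on 2L and 217.92 on 3R. From 500 bp to 5 kb away, the highest was 178.08 on 3L, against 596.15 on X, 630.12 on 2L and 305.5 on 3R. Of the 66 broad peaks on 3L, 40 (60.6%, interval 48.5 to 71.5%) had a member within 500 bp, against 75.4% on X, 48.6% on 2L and 63.5% on 3R. Among members scoring 200 or more, 0 of 32 on 3L lay within 5 kb of a broad peak, which allows a share of up to 9.38%, against 2 of 17 on X, 2 of 16 on 2L and 2 of 24 on 3R. The width limit itself divides a broad peak from a member, so such groups may be cut anywhere along their length.

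The last 2 Mb of 3L, on the centromere side, held many members and none scoring 100 or more. On 3L low coordinates lie toward the telomere and high coordinates toward the centromere, where the arm borders heterochromatin, the compact and repeat-rich part of the chromosome. The last 2 Mb of the span held 73 members (15.6%, interval 12.6 to 19.2%), in 8.22% of the span. With windows of 2 Mb an excess of members was common to the arms. The centromere windows held 15.5% of members in 8.93% of the span on X, 14.3% in 8.82% on 2L and 11.8% in 7.21% on 3R. With windows of 1 Mb 2L showed no clear excess, holding 4.91% (interval 3.23 to 7.38%) in 4.41% of the span. The others then held 10.3% in 4.11% on 3L, 12.7% in 4.46% on X and 7.08% in 3.61% on 3R. The 73 members on 3L scored between 6.95 and 44.82 with a median of 14.35. The 347 members between the outer windows of 2 Mb scored 7.13 to 927.33 with a median of 19.48. None of the 73 reached 100, which allows a share of up to 4.11%, against 46 of 347 (13.3%, interval 10.1 to 17.2%) between the windows. The highest, 3L:23116756-23117780, scored 44.82. The member nearest the centromere with a score of 100 or more was 3L:22260239-22260798, which scored 125.5. It lay outside the last 2 Mb but within the last 10% of the span, where 1 of 76 members scored 100 or more. That part held 4 of 52 such members on X, 5 of 66 on 2L and 4 of 57 on 3R.

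The centromere windows of 2 Mb on X, 2L and 3R, the last on its low-coordinate side, also had low medians but did hold strong peaks. The median was 14.35 on 3L, against 14.86 on X, 15.9 on 2L and 14.61 on 3R. Members of 100 or more were 0 of 73 on 3L, against 3 of 50 on X, 5 of 61 on 2L and 4 of 50 on 3R. The highest scores there were 44.82 on 3L, against 342.47 on X, 730.07 on 2L and 217.92 on 3R. The limit of 4.11% for 3L lay within the intervals of X (2.06 to 16.2%), 2L (3.55 to 17.8%) and 3R (3.15 to 18.8%). Such overlap cannot show whether the shares differ, and a difference between the arms was not tested.

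The members of the last 2 Mb were also crowded, as in the windows of 2 Mb on the other arms. A peak lay within 500 bp of 53 of the 73 (72.6%), against 135 of 347 (38.9%) between the windows. The same shares were 56.0% against 46.4% on X, 65.6% against 42.9% on 2L and 52.0% against 40.1% on 3R, and the difference between the arms was not tested. With windows of 1 Mb the order was reversed on 3R, with 36.7% against 42.1%. It held on 3L (81.2% against 39.3%), X (63.4% against 45.1%) and 2L (66.7% against 44.6%). Joined across gaps under 5 kb, the 73 became 28 regions, or 10.0% of the 279 on the arm, in 8.22% of the span. Median width was 517 bp there and 525 bp between the windows, so the members of the last 2 Mb were lower in score at much the same width. The 47 members in the first 2 Mb differed from them: their median was 18.92, 5 scored 100 or more, and 15 (31.9%) had a peak within 500 bp. Over the whole arm, a peak within 500 bp stood beside 55.9% of members scoring under 30 and 10.9% of those at 30 or more. How far the crowding goes with position apart from score was not tested. Whether reads that match several places in the genome had a part in the values of the last 2 Mb was not tested.

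**Figure D4:**
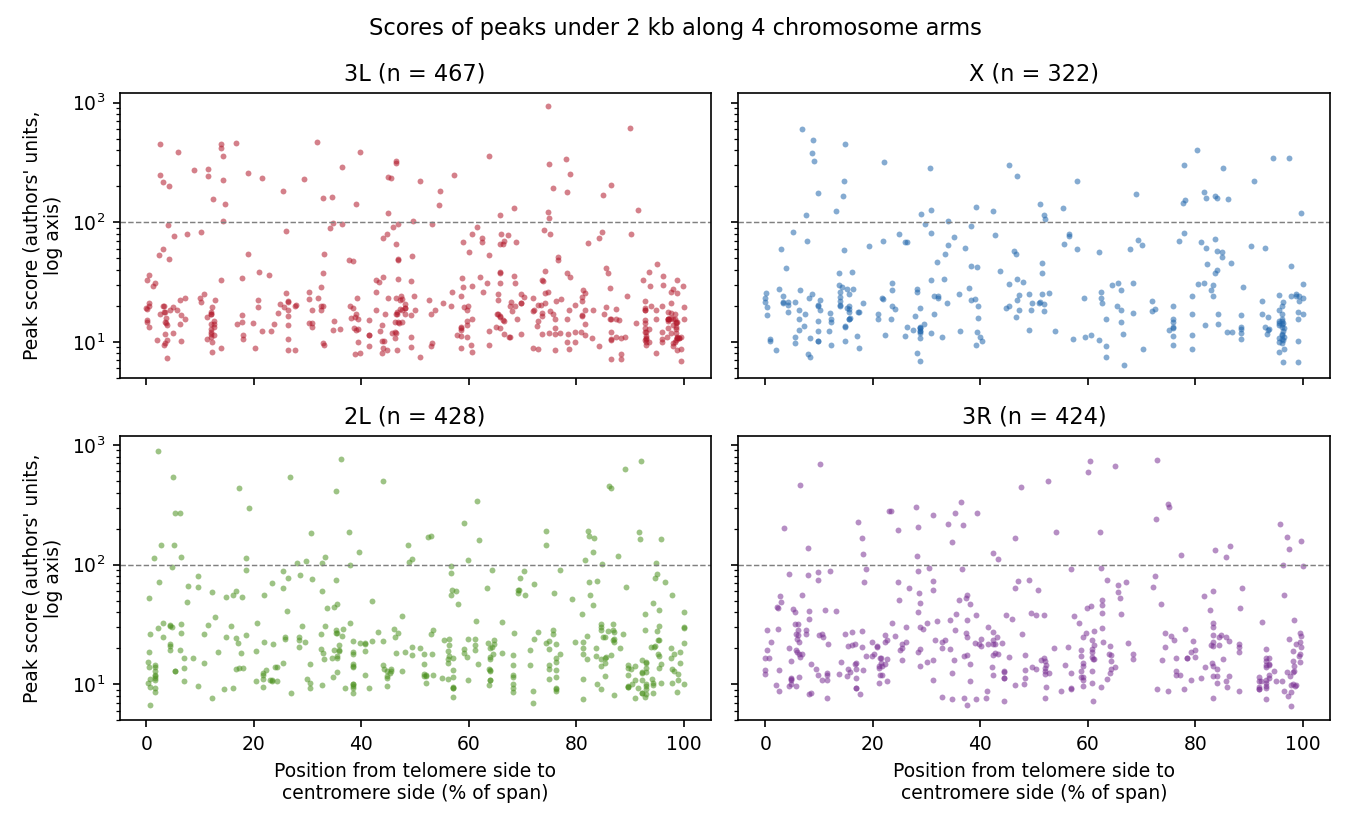
Score (log axis, authors' units) of each peak under 2 kb against its position from the telomere side to the centromere side, as a percentage of the span of peaks on 3L, X, 2L and 3R; the dashed line marks a score of 100. On 3L the points of the last 2 Mb are dense and none lies above 44.82, while the other 3 arms have points above the line there.

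By bins of 1 Mb the full bins of 3L held 7 to 37 members with a median of 16.5. The fullest was 23 to 24 Mb, in the centromere window, with 37 members, 15 regions, a median score of 15.38 and a highest score of 44.82. Next came 11 to 12 Mb with 35 members in 16 regions, a median of 18.92 and 3 members of 200 or more, and 0 to 1 Mb with 32 members in 22 regions, a median of 18.36 and again 3 of 200 or more. The emptiest were 13 to 14 Mb with 7 members and 5 to 6 Mb with 9. Few members did not mean low scores, since the 7 at 13 to 14 Mb had a median of 26.23 and 3 of them scored 100 or more. At 14 to 15 Mb, by contrast, 23 members reached no more than 91.25. In all, 21 of the 25 bins held a member of 100 or more, against 18 of 23 on X, 17 of 23 on 2L and 24 of 28 on 3R.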

How the data were processed

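CASAVA (1.7.0.2 and 1.7.0.3), MACS2 and BWA are named, with build BDGP5, per the submitters' processing notes. Per the file headers, coordinates are FlyBase release 5, 1-based, and the caller is MACS. The deposited list does not say which statistic the peak score is, and its threshold, the read filters and any pooling of the 3 ChIP and 3 input libraries were not given in the sources used here. Columns of other samples: 0. From the list, members were taken by arm and width, and gaps, joined regions and windows were computed in Python 3.11.15 with numpy 2.4.6, pandas 2.3.3 and scipy 1.17.1 (figures, matplotlib 3.10.9). A limit for a share of 0 is 3 counts. No test was made. The functions were tested on simulated data. Gaps count bases between peaks. A span is the stretch between the outermost peak edges of an arm. Peaks named by position are the 10 highest-scoring and 3 widest members, the 5 fullest regions, the fullest and emptiest bins and those at the width limit. Others were picked after their values were seen. Members, limits and lists were chosen with earlier results of these data known. A gene table of release 6 was not used with these release 5 positions, so gene names, promoters and motifs were not analysed here.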

Additional observations from a re-analysis of the deposited data

How the results depend on the processing

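With only the top 50% of the list by score, that is 21.84 or more, 3L kept 178 members in 162 regions, 25.0% of the members of the 4 arms, with a median width of 656 bp. There 12.9% had a peak within 500 bp and 6.74% lay in the last 2 Mb, which was 8.22% of the span. Joining gaps under 500 bp first left 297 members. With 1 peak per region, the highest, the median score was 24.31 and rho between width and score 0.41. The share with a peak nearby was 66.0% at 5 kb and 38.1% without the last 2 Mb. The share near a broad peak, 13.5% at 5 kb, was 9.42% at 500 bp, 18.6% at 20 kb and 7.07% with broad peaks from 3 kb. The last 1 Mb held 10.3% of members, and the last 2 Mb held 10.0% of regions. Changes with the distance, the window and the number of peaks kept follow from their construction, and of the others the cause was not tested. The other 18 of 34 alternatives stayed within the interval of the value or within 1.5 times the count. They include score limits of 50, 150 and 200, chosen after seeing the data. For strong members without a peak within 5 kb these gave 63.3 to 65.6%. In the last 2 Mb all 73 members were below each limit. That outcome was fixed beforehand, because the highest score there was 44.82. The last 10% of the span, a wider window, was not one of the alternatives. It held 76 members, of which 1 scored 100 or more, at 125.5. The motif alternative was not run, for want of a release 5 genome. No paired analysis was possible because peaks have 1 score for all libraries together, and leaving out a replicate was likewise not possible.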

Other observations

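Scores on 3L were often repeated to the second decimal: 372 of the 467 members shared their score with at least 1 other member, and the list held 185 distinct values for them. The numbers on the other arms were 225 of 322 on X, 319 of 428 on 2L and 318 of 424 on 3R. The most common gap between neighbouring 3L peaks was 70 bp, which occurred 7 times.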
